A study of Mus musculus with 19 samples.

Results

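Chemokines are small secreted or membrane-held proteins that draw cells along a gradient, and their receptors are G protein-coupled receptors on the cells that are drawn. Some, such as the ligands of Ccr2 and Cxcr2, are made by tumor, stromal and myeloid cells under inflammatory signals and recruit monocytes and neutrophils. Others are induced by interferons and recruit activated T cells and NK cells, and a homeostatic group places lymphocytes in tissue. Described here are 41 genes of this family, 26 ligands and 15 receptors, in primary mouse sarcomas with and without mature T and B cells. They were taken by symbol, from a fixed list out of the 48795 genes of the expression table, and 20 further family genes serve as a comparison.

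The data were 19 bulk RNA libraries, 1 for each tumor, from 11 Rag2-/- and 8 Rag2+/- mice, which were littermates. Mice without Rag2 make no mature T or B cells, while their NK and myeloid cells develop, and mice with 1 intact allele have T and B cells. In every mouse the sarcoma was started at 6 to 10 weeks of age in the gastrocnemius, a calf muscle, by an adenovirus (Adeno-sgp53-Cas9) that carries Cas9 and a guide RNA against Trp53, followed by 300 µg of the carcinogen MCA (3-methylcholanthrene) at 6 µg/µl in sesame oil. The tumors received no therapy and were taken at about 70 to 150 mm3, so each sample is a mixture of sarcoma cells, immune cells and whatever muscle was cut with it. Nothing in the labels ties the tumors to a batch.

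Each value is the log2 of the upper-quartile normalized FPKM (fragments per kilobase of transcript scaled to the sequencing depth) after 0.1 had been added, so an undetected gene stands at −3.32, called the floor below. The low values gave an estimated depth of 24.75 to 33.65 M fragments (M for mega) in 18 tumors and 5.23 M in S41. S41, S46 and S51 (Rag2-/-) and S56 (Rag2+/-) are outside the 15 tumors for which the study lists source data, so the 15 were also analysed alone. T cell markers followed the labels. Of 12 T cell genes, 8 were lower in Rag2-/- tumors (limma, adjusted p under 0.05), their summed level was 1.46 to 8.76 normalized FPKM in Rag2-/- and 14.6 to 67.3 in Rag2+/- tumors, and Cd3e was at the floor in all 11 Rag2-/- tumors. The Rag2 value itself, which counts fragments on the whole gene and does not test the label, was −0.34 ± 0.74 (SD, n = 11) in Rag2-/- and −1.31 ± 0.70 (SD, n = 8) in Rag2+/- tumors. Skeletal muscle genes had a mean log2 level of 7.83 ± 1.97 (SD, n = 11) against 10.07 ± 2.40 (SD, n = 8), with S56 the richest in muscle and 11 of 12 genes at a negative difference with an unadjusted p under 0.05 (limma, none after adjustment). The genes of the type I interferon response had 5.46 ± 0.63 (SD, n = 11) against 4.48 ± 0.76 (SD, n = 8). Xist, an RNA made by female cells, had a median of 3.22 in Rag2-/- and −2.51 in Rag2+/- tumors, a difference in means of 1.88 (limma unadjusted p = 0.219). The sexes may therefore be unevenly spread over the genotypes, and Xist was used as a covariate in one alternative fit.

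All 41 genes were detected in at least 8 tumors and entered the test, 30 of them in every tumor. The 4 with the highest mean log2 value, on a scale that is per length and so allows genes to be set side by side, were Cxcl12 at 7.03, Ccl2 at 6.99, Ccl8 at 6.98 and Ccl7 at 6.76. These levels lay within 1 SD of each other over tumors. Ccl6 at 6.51, Cxcl10 at 6.39, Ccl9 at 5.97, Ccl5 at 5.75, Cxcl14 at 5.38 and Cxcl16 at 5.25 followed, so the 10 genes with the highest values were all ligands. The highest receptors were Ccr2 at 4.80, Ccr1 at 4.51 and Cxcr4 at 4.38, which are carried by monocytes, macrophages, neutrophils and many other leukocytes. At the other end, 9 genes had a mean below 0, among them Ccr4 at −2.89, Ccr6 at −2.78, Cxcr5 at −2.54, Ccr8 at −2.34 and Ccr3 at −2.07, receptors known from lymphocytes and eosinophils.

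**Figure D1:**
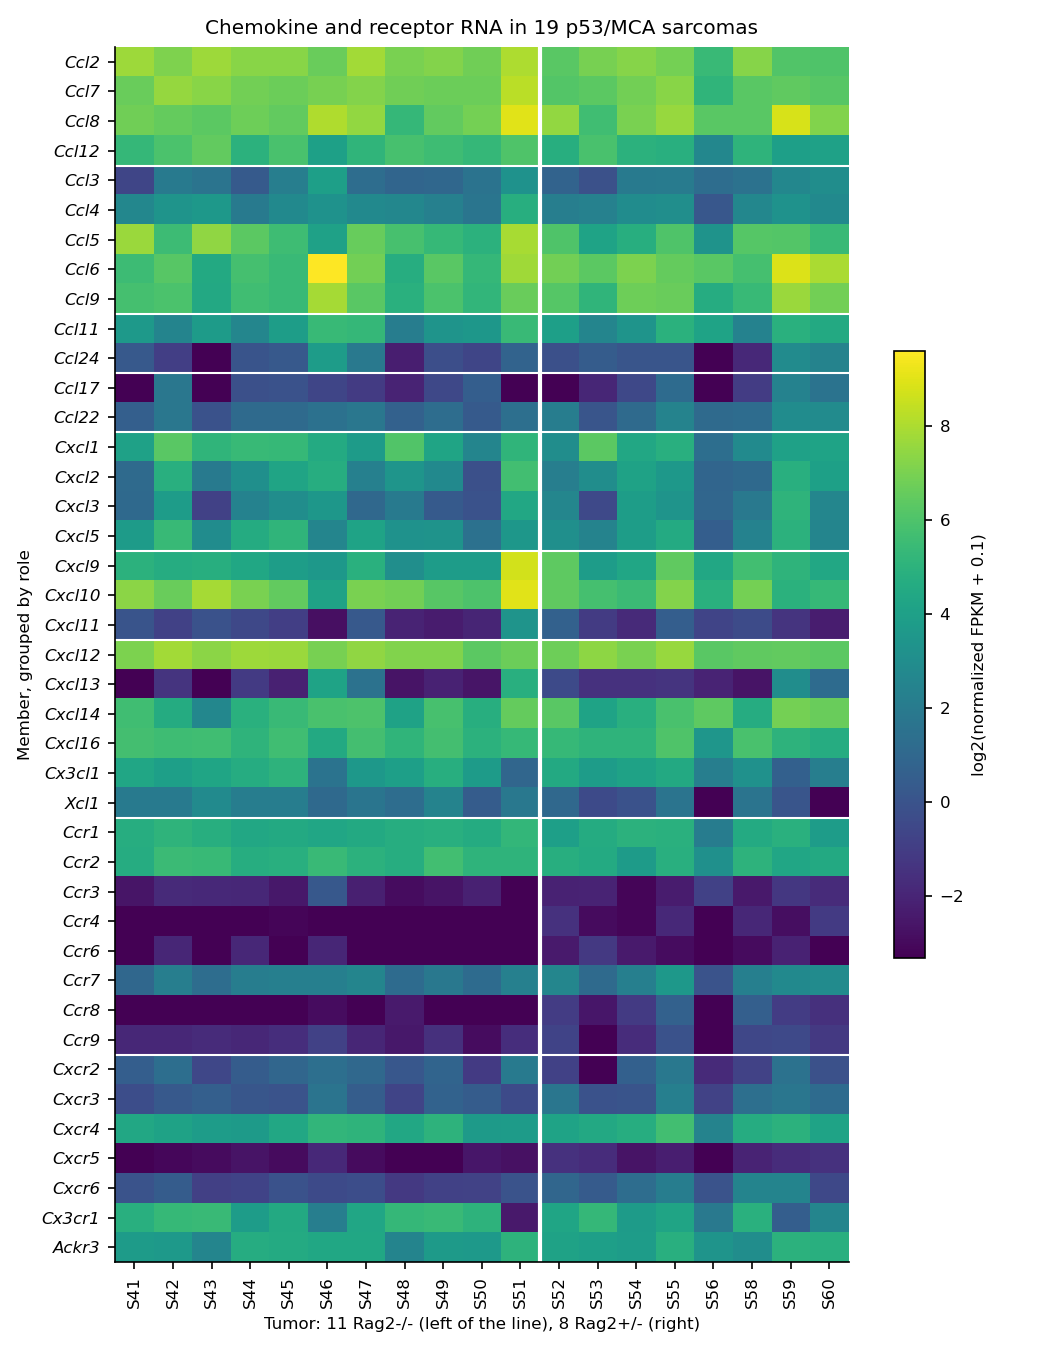
Log2 value of each of the 41 genes (rows, grouped by role from the ligands of Ccr2 at the top to the receptors at the bottom) in each of the 19 tumors (columns, 11 Rag2-/- left of the line and 8 Rag2+/- right of it). Yellow is high and dark purple the floor of −3.32. The rows of Ccl2, Ccl7 and Cxcl12 are bright in every tumor, those of Ccr4 and Ccr8 are dark in Rag2-/- tumors, and single tumors such as S51 stand out in Cxcl9, Cxcl10 and Cx3cr1.

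The question of the comparison was whether these genes differ between sarcomas that grew with and without mature T and B cells. By limma on all 18373 genes tested, 0 of the 41 genes had an adjusted p under 0.05, while 0.131% of all genes did, each of them lower in Rag2-/- tumors. At an unadjusted p under 0.05, 5 of the 41 genes had a positive difference (Rag2-/- minus Rag2+/-), namely Xcl1, Ccl12, Ccl2, Ccr2 and Ccl7, where 6.53% of all genes did. On the negative side stood 4 genes, Ccr8, Cxcr6, Ccr4 and Cxcr5, where the share of all genes was 8.34%. These are shares of 12.2% and 9.76% of the 41 genes. No gene of the 41 had values that did not overlap between the genotypes, against 0.00% of all genes on the higher side and 0.0762% on the lower side. The median difference was −0.08 over the 41 genes, 18 of them positive, and 0.07 over all genes tested. By role, the medians were 0.75 for the 4 ligands of Ccr2, −0.05 for the 5 ligands of Ccr1, −0.60 for the 2 ligands of Ccr4, −0.09 for the 2 ligands of Ccr3, 0.36 for the 4 ligands of Cxcr2, 0.08 for the 3 ligands of Cxcr3, 0.35 for the 6 homeostatic or other ligands, −0.36 for the 8 CC receptors and −0.23 for the 7 other receptors.

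**Figure D2:**
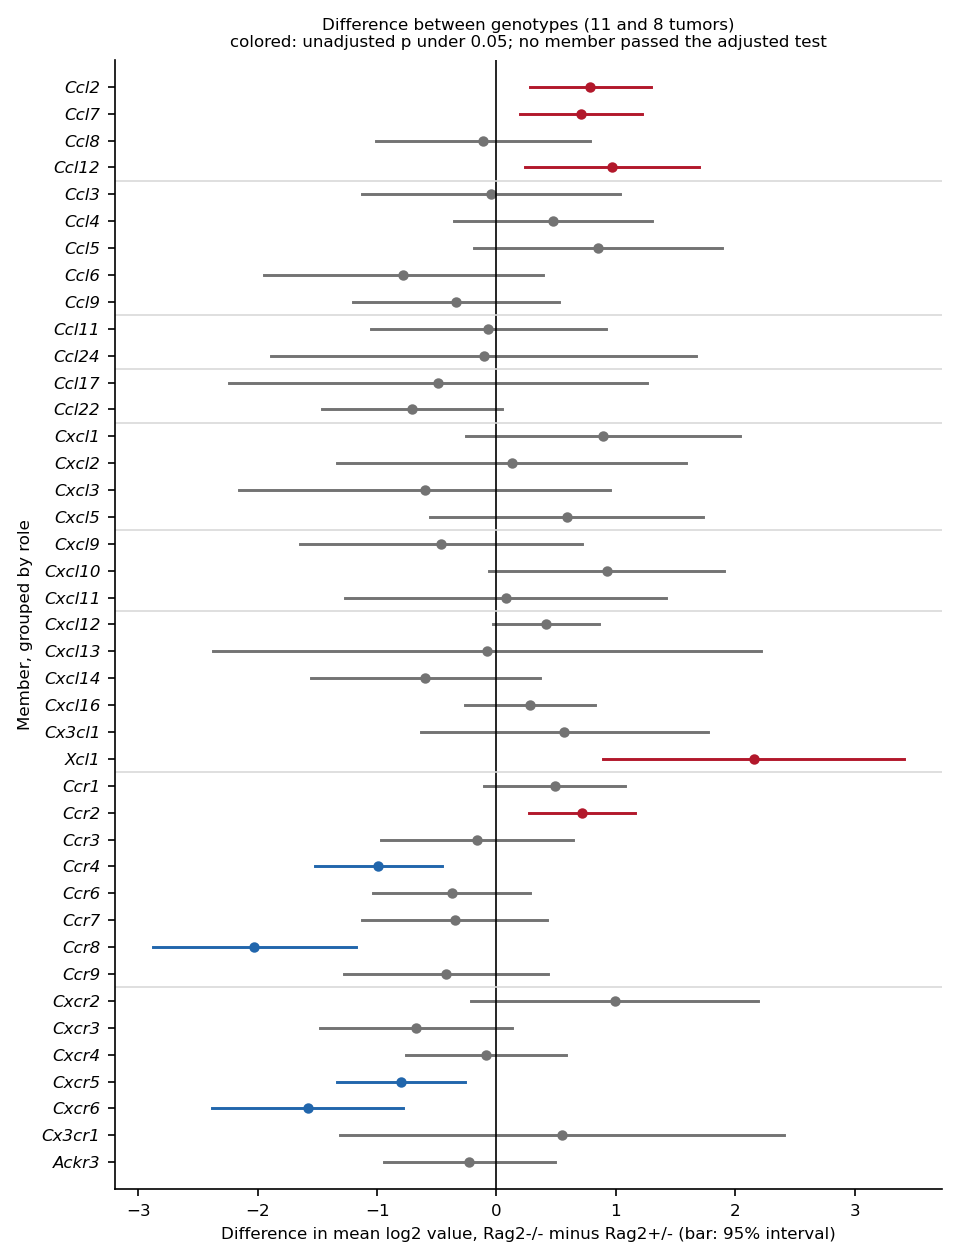
Difference in mean log2 value, Rag2-/- minus Rag2+/-, for each of the 41 genes (points) with its 95% interval from limma (bars), from 11 and 8 tumors. Red marks an unadjusted p under 0.05 with a positive difference (5 genes), blue the same with a negative difference (4 genes), grey the other genes. The positive ones are Xcl1, Ccr2 and 3 of the 4 ligands of Ccr2, and the negative ones are all receptors.

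Ccr2 guides inflammatory monocytes out of the bone marrow and into tissue, and its ligands Ccl2, Ccl7, Ccl8 and Ccl12 lie beside Ccl11 in one run of 81.2 kb on chromosome 11 of GRCm38 (chr11:82035571-82116799). Ccl2 was 6.62 at the lowest, 7.29 at the median and 7.99 at the highest in Rag2-/- tumors, and 5.45, 6.61 and 7.27 in Rag2+/- tumors. Most Rag2-/- tumors thus stood at or above the highest Rag2+/- tumors, with overlap below. The difference was 0.79 (standard error 0.24, limma unadjusted p = 0.00405, adjusted p = 0.327), with an exact permutation p of 0.00570 (two-sided). For Ccl7 the lowest, median and highest were 6.67, 6.85 and 8.26 against 5.14, 6.33 and 7.28, a difference of 0.71 (standard error 0.24, limma unadjusted p = 0.00921, adjusted p = 0.327). Its Rag2-/- values bunch near 6.8, with S51 alone above 8. Ccl12 was at 4.02, 5.57 and 6.51 against 2.68, 4.80 and 5.87, a difference of 0.97 (standard error 0.35, limma unadjusted p = 0.0115, adjusted p = 0.327). The lowest value of all 3 in Rag2+/- tumors was that of S56. Ccl8, the remaining ligand of the run, was at 6.93 ± 0.99 in Rag2-/- tumors (SD, n = 11) and 7.04 ± 0.98 (SD, n = 8) in Rag2+/- tumors, differing by −0.11 with a 95% interval of −1.01 to 0.78. On the linear scale the ratio of mean normalized FPKM was 1.65 for Ccl2, 1.61 for Ccl7, 1.81 for Ccl12 and 0.953 for Ccl8.

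The receptor Ccr2 itself was between 4.69 and 5.67, with a median of 5.09, in Rag2-/- tumors and between 3.18 and 5.03, with a median of 4.55, in Rag2+/- tumors. Its difference was 0.72 (standard error 0.21, limma unadjusted p = 0.00299, adjusted p = 0.327), with an exact permutation p of 0.00168 (two-sided). Ccr2 lies in a group of 5 receptor genes on chromosome 9 (chr9:123678439-124113557) with Ccr1, Ccr3, Ccr9 and Cxcr6, of which only Ccr2 and Cxcr6 had an unadjusted p under 0.05, in opposite directions. No relation of Ccl2 with Ccr2 across tumors passed its test within a genotype. Pearson r was −0.24 and Spearman rho −0.19 in Rag2-/- tumors (n = 11, permutation p = 0.479 and 0.574, adjusted p = 0.598 and 0.766 over 20 relations) and 0.51 and 0.55 in Rag2+/- tumors (n = 8, exact permutation p = 0.210 and 0.171, adjusted p = 0.3004 and 0.285), and without the 2 tumors most distant in Ccr2 r was −0.11 and 0.69. Of 12 markers of macrophages and monocytes, 11 had a positive difference, as Ccr2 had, 1 had an unadjusted p under 0.05 and 0 an adjusted p under 0.05, with a median difference of 0.36. Their summed level was 1293 to 3655 normalized FPKM in Rag2-/- and 628.5 to 2213 in Rag2+/- tumors. The part of these cells in the values of Ccr2 and its ligands was not tested, and in bulk tissue fewer cells of a type and less RNA per cell cannot be told apart. With skeletal muscle genes as a covariate the differences were 0.60 for Ccr2, 0.60 for Ccl2, 0.68 for Ccl7 and 0.56 for Ccl12, the last with an unadjusted p of 0.124.

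Xcl1, a chemokine of NK and CD8 T cells that attracts cross-presenting dendritic cells through Xcr1, had a difference of 2.15 in the 19 tumors. In Rag2-/- tumors it was 0.45 at the lowest, 1.95 at the median and 2.84 at the highest, and in Rag2+/- tumors −3.32, 0.02 and 1.66. It was detected in all 11 Rag2-/- tumors and in 6 of 8 Rag2+/- tumors, at the floor in S56 and S60. That difference had a standard error of 0.61 (limma unadjusted p = 0.00198, adjusted p = 0.306), with an exact permutation p of 0.00109 (two-sided). With 1 in place of 0.1 added before the log it was 1.15, so its size rests in part on the 2 tumors at the floor, and the ratio of mean normalized FPKM was 2.86. The gene is small and was read from an estimated 10 to 92 fragments in Rag2-/- and 0 to 47 in Rag2+/- tumors, and 98 of its 523 exonic bases are shared with Gm20743 on the other strand. All 8 NK cell markers had a positive difference, 6 with an unadjusted p under 0.05 and 0 with an adjusted p under 0.05, and their summed level was 11.6 to 86.6 normalized FPKM in Rag2-/- and 3.66 to 32.3 in Rag2+/- tumors. Their part in the Xcl1 value was not tested. Xcr1, its receptor, was at −0.96 ± 0.76 in Rag2-/- tumors (SD, n = 11) and −1.25 ± 0.96 (SD, n = 8) in Rag2+/- tumors, differing by 0.29 (limma unadjusted p = 0.462).

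The 4 genes with negative differences are receptors that textbooks place on lymphocytes. Ccr8, known from regulatory and other activated T cells, was at the floor in 9 of 11 Rag2-/- tumors, with S46 at −2.89 and S48 at −2.37. In Rag2+/- tumors it was −3.32 at the lowest, in S56, −1.08 at the median and 0.68 at the highest. The genotypes overlap through S56 and S53, at −2.54, the other 6 Rag2+/- tumors lying above every Rag2-/- tumor. The difference was −2.03 (standard error 0.41, limma unadjusted p = 7.28e-05, adjusted p = 0.0535), with an exact permutation p of 0.000304 (two-sided). Above the floor in 2 Rag2-/- and 7 Rag2+/- tumors, it met the minimum of 8 tumors through the group in which it was detected, so its difference is a description. The limma adjusted p was 0.0188 in the 15 tumors, at −2.35, 0.00266 without S56, at −2.34, and 0.269 with 1 in place of 0.1 added before the log, at −0.53. These values rest on an estimated 0 to 3 fragments per Rag2-/- and 0 to 48, with a median of 8, per Rag2+/- tumor.

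Cxcr6, which keeps activated T cells, NKT cells and some innate lymphocytes in tissue, was better covered, with an estimated 8 to 58 and 20 to 306 fragments. It was −1.18 at the lowest, −0.44 at the median and 0.44 at the highest in Rag2-/- tumors and −0.53, 1.13 and 2.49 in Rag2+/- tumors. The receptor was thus detected in all 11 Rag2-/- tumors, and their highest values overlap the lowest Rag2+/- tumors. The difference was −1.58 (standard error 0.38, limma unadjusted p = 0.000514, adjusted p = 0.193), with an exact permutation p of 0.000662 (two-sided), and the ratio of mean normalized FPKM was 0.246. With 1 added before the log the difference was −0.99. Its ligand Cxcl16, made by macrophages and dendritic cells, was at 5.37 ± 0.40 in Rag2-/- tumors (SD, n = 11) and 5.09 ± 0.79 (SD, n = 8) in Rag2+/- tumors, differing by 0.28 with a 95% interval of −0.27 to 0.83. Of the 3021 exonic bases of Cxcl16, 552 are shared with Zmynd15 on the other strand.

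Ccr4, a receptor of regulatory and type 2 helper T cells, was at the floor in every Rag2-/- tumor but S45, at −3.14, and above it in 7 of 8 Rag2+/- tumors, up to −1.11 in S60. The difference was −0.99 (standard error 0.26, limma unadjusted p = 0.000972, adjusted p = 0.273), and −0.17 with 1 added before the log. Ccr4 met the minimum of 8 tumors exactly, through the group in which it was detected, and its values stand for an estimated 0 or 1 fragment in Rag2-/- and at most 18 in Rag2+/- tumors. The ligands of Ccr4, which come from dendritic cells and macrophages, were present in both groups. Ccl22 was at 1.05 ± 0.60 in Rag2-/- tumors (SD, n = 11) and 1.76 ± 1.02 (SD, n = 8) in Rag2+/- tumors, differing by −0.71 (limma unadjusted p = 0.0651), and Ccl17 was at −1.10 ± 1.71 (SD, n = 11) and −0.61 ± 2.20 (SD, n = 8). Cxcr5, which leads B cells and follicular helper T cells to follicles, had a difference of −0.80 (standard error 0.26, limma unadjusted p = 0.00571, adjusted p = 0.327), and −0.15 with 1 added before the log. Its median was −2.94 in Rag2-/- and −1.87 in Rag2+/- tumors, from at most 13 and 14 fragments. Of its exonic bases 110 lie in Bcl9l, on the other strand, whose mean log2 value of 3.18 was well above that of Cxcr5. Cxcl13, the ligand of Cxcr5, ranged from −3.32 to 4.85 in Rag2-/- and from −2.65 to 3.02 in Rag2+/- tumors, the widest range of the 41 genes, with a difference of −0.08 (95% interval −2.37 to 2.22).

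All 12 genes of the T cell list had a negative difference with an unadjusted p under 0.05, 8 of them passed the adjusted test, and the median was −3.94. Of 8 B and plasma cell genes tested 5 had a negative difference with an unadjusted p under 0.05, and 3 passed the adjusted test. Their part in the receptor values was not tested. Other lymphocyte receptors among the 41 genes had smaller differences. Cxcr3, the receptor of Cxcl9, Cxcl10 and Cxcl11 on activated T cells and NK cells, was at 0.27 ± 0.64 in Rag2-/- tumors (SD, n = 11) and 0.94 ± 1.07 (SD, n = 8) in Rag2+/- tumors, differing by −0.67 with a 95% interval of −1.48 to 0.13. Ccr7, which guides dendritic cells and naive T cells to lymph nodes, was at 1.84 ± 0.56 in Rag2-/- tumors (SD, n = 11) and 2.19 ± 1.12 (SD, n = 8) in Rag2+/- tumors, differing by −0.35 (−1.13 to 0.43). Ccr9, a gut-homing receptor of T cells, differed by −0.42 (−1.28 to 0.43), and Ccr6, found on B cells and Th17 cells, by −0.38 (−1.03 to 0.28), with Ccr6 at the floor in 8 of 11 Rag2-/- and 2 of 8 Rag2+/- tumors. Of the 10260 exonic bases of Ccr9, 1932 are shared with AC165425.1 on the other strand and 269 with Gm17200 on the same strand. The mean log2 value of Gm17200, −0.007, was above that of Ccr9, −1.67, so the Ccr9 value is uncertain.

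**Figure D3:**
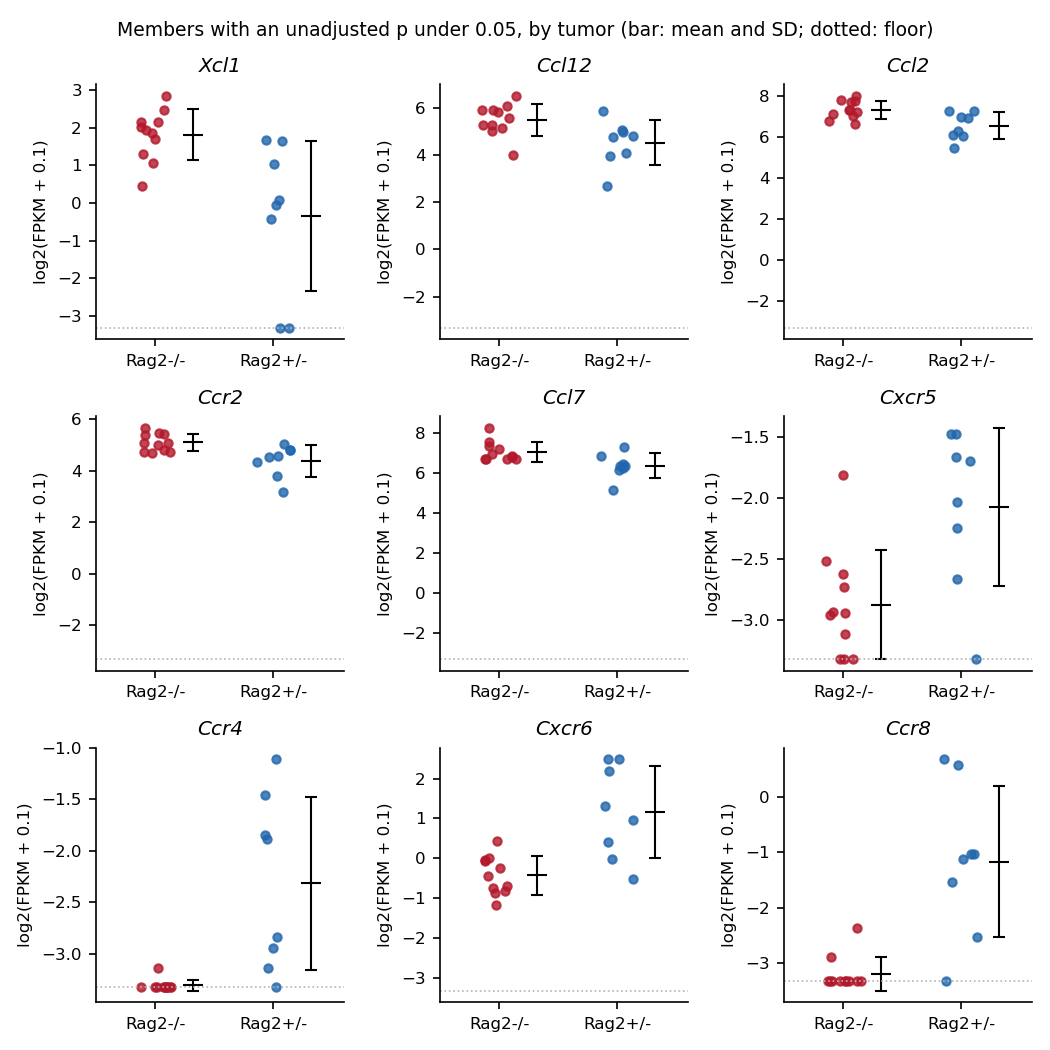
Log2 value in each tumor (points, red for 11 Rag2-/- and blue for 8 Rag2+/-) of the 9 genes with an unadjusted p under 0.05, ordered from the most positive to the most negative difference. Bars are mean and SD over tumors and the dotted line is the floor of −3.32. The Rag2-/- points of Ccr4 and Ccr8 lie almost all on the floor, while those of Cxcr6 lie above it, between −1.18 and 0.44.

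**Figure D4:**
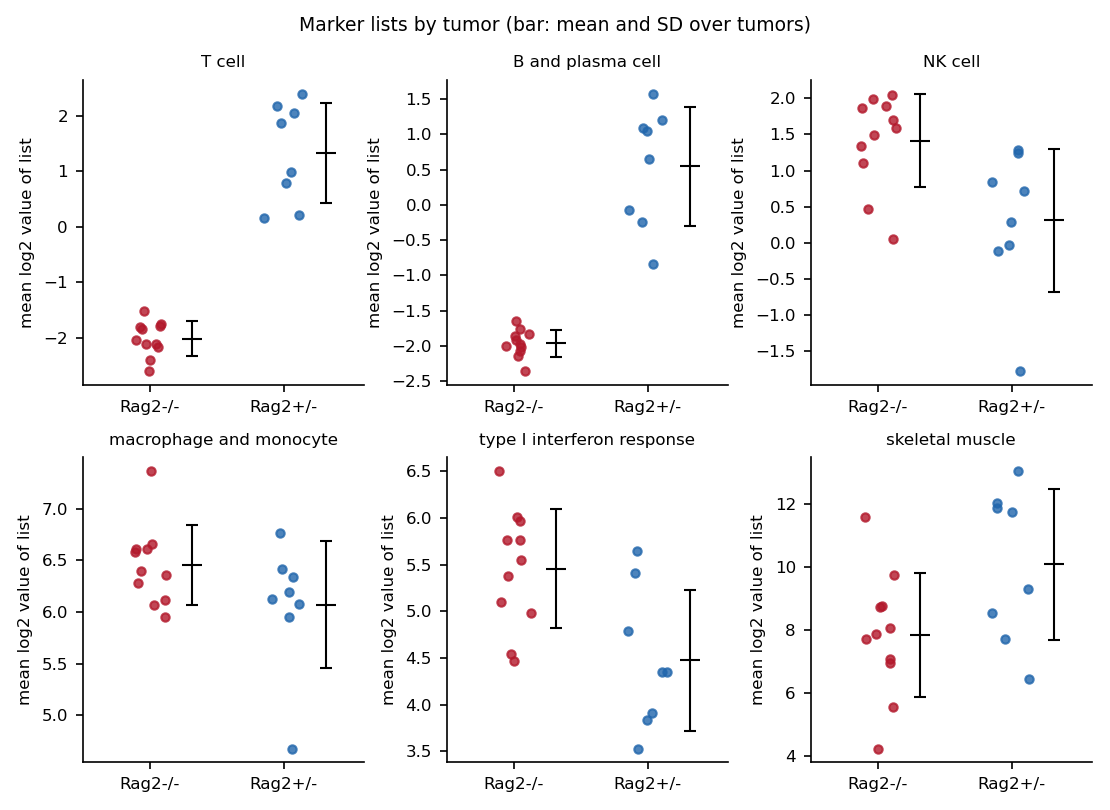
Mean log2 value over the genes of 6 marker lists in each tumor (points, red for 11 Rag2-/- and blue for 8 Rag2+/-), with mean and SD over tumors as bars. The T cell list and the B and plasma cell list lie apart, with T cell means of −2.60 to −1.53 in Rag2-/- and 0.16 to 2.39 in Rag2+/- tumors, while the NK cell, macrophage, type I interferon and skeletal muscle lists overlap.

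The ligands of Cxcr3 are classical targets of interferons. Cxcl10 was 4.14 at the lowest, in S46, 6.87 at the median and 9.003 at the highest, in S51, among Rag2-/- tumors, and 4.86, 5.62 and 7.202 among Rag2+/- tumors. The groups overlap over most of that range, and the difference of 0.92 had a 95% interval of −0.06 to 1.90 (limma unadjusted p = 0.0640). Cxcl9 was at 4.60 ± 1.498 in Rag2-/- tumors (SD, n = 11) and 5.07 ± 0.99 (SD, n = 8) in Rag2+/- tumors, differing by −0.46 (−1.65 to 0.72), and Cxcl11 at −0.72 ± 1.70 in Rag2-/- tumors (SD, n = 11) and −0.79 ± 1.05 (SD, n = 8) in Rag2+/- tumors, differing by 0.08 (−1.27 to 1.42). Of the exonic bases, 133 of the 2252 of Cxcl10 and 1582 of the 3794 of Cxcl11 are shared with a gene on the other strand. S51 was the highest Rag2-/- tumor in all 3, with Cxcl9 at 8.72 against 5.004 in the next, and it also had the highest Ifng value, 2.43. Without it and S49, the pair farthest from the median of Ifng, Cxcl9 and Ifng had r = 0.12 in Rag2-/- tumors in place of 0.76 (permutation p = 0.0508, adjusted p = 0.113), so that value rested on these tumors, and rho was 0.15 (permutation p = 0.670). In Rag2+/- tumors r was 0.66 and rho 0.63 (exact permutation p = 0.0796 and 0.101), and r was 0.41 without S53 and S56. Ifng, the type II interferon made by NK and T cells, was read from at most 96 fragments and was at −1.86 ± 1.69 (SD, n = 11) and −1.59 ± 1.12 (SD, n = 8).

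Cxcl10 followed the genes of the type I interferon response within both genotypes in the 19 tumors. Against the mean of 12 such genes, Pearson r was 0.82 and Spearman rho 0.85 in Rag2-/- tumors (n = 11, permutation p = 0.00134 and 0.00175, adjusted p = 0.0134 and 0.0175 over 20 relations). In Rag2+/- tumors r was 0.98 and rho 0.98 (n = 8, exact permutation p = 0.000124 and 0.000397, adjusted p = 0.00248 and 0.00794). With the 2 tumors most distant from the median list level left out, r was 0.92 and 0.93. In the 8 Rag2-/- tumors of the source data r was 0.58 and rho 0.69 (exact permutation p = 0.132 and 0.0694, adjusted p = 0.294 and 0.278), so the relation no longer passed there. In the 7 Rag2+/- tumors r was 0.97 and rho 0.96 (exact permutation p = 0.000595 and 0.00278, adjusted p = 0.0119 and 0.0556), so rho no longer passed. All 12 genes of that list had a positive difference with an unadjusted p under 0.05 and 0 with an adjusted p under 0.05, with a median of 0.98, close to the difference of Cxcl10. Ifnb1 had a difference of 0.94 (limma unadjusted p = 0.0466), but at means of −2.15 and −3.09 it was close to the floor.

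The stretch before the start of Cxcl10 is shown because it holds motifs of both interferon and NF-κB control. The bases come from the RefSeq promoter table (GRCm38.p6), and capitals mark matches to the interferon-stimulated response element (ISRE, searched as GAAANNGAAA on both strands) and to the NF-κB consensus. The 220 bases end 1 base before the start, on the minus strand of chromosome 5 at chr5:92348890-92349109, so that the ISRE comes first, followed by 2 stretches matching NF-κB, the second of which holds 2 overlapping matches.
Cxcl10: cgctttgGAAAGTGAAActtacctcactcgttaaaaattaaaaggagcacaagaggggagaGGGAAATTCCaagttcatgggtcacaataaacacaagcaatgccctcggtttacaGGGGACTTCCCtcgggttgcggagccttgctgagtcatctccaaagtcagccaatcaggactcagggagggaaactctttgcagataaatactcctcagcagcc
Of the 41 genes 30 had a promoter in that table, which spans 250 bases before to 50 after the start. The ISRE letters were in 2 of them, Cxcl10 and Cxcl14, and in 3.44% of all 32851 promoters. The interferon gamma element (GAS, searched as TTCNNNGAA, which reads the same on both strands) was in 3, Ccl17, Ccr6 and Cxcl14, and in 8.30% of all promoters. A match is a description of the letters and not evidence of binding.

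The ligands of Cxcr2, which attract neutrophils, lie together on chromosome 5 (chr5:90759360-90905938) as Cxcl5, Cxcl3, Cxcl1 and Cxcl2. Before the starts of Cxcl1, Cxcl2 and Cxcl3 the same run of 11 bases matches the NF-κB consensus, which is why these stretches are printed, on the plus strand and ending before both the RefSeq and the GENCODE start, with the match in capitals. They span 106, 82 and 110 bases, at chr5:90891135-90891240, chr5:90903789-90903870 and chr5:90785991-90786100.
Cxcl1: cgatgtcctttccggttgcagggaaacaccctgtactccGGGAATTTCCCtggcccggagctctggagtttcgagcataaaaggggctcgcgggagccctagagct
Cxcl2: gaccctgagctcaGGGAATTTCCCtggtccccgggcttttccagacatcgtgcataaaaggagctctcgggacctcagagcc
Cxcl3: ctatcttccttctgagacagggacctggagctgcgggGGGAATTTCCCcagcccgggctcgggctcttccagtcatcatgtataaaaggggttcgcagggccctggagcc
In all, 8 of the 30 genes with a promoter in the table held an NF-κB match, also Cxcl10, Ccl9, Ccr1, Ccr3 and Ccr6, and so did 8.46% of all promoters. The 3 genes did not all peak in the same tumors. In Rag2-/- tumors Cxcl1 was highest in S42, at 6.30, and Cxcl2 and Cxcl3 in S51, at 5.67 and 4.43, and in Rag2+/- tumors Cxcl1 was highest in S53, at 6.35, where Cxcl3 had its lowest value of −0.48. None of the 4 ligands had an unadjusted p under 0.05. Cxcl1 was at 4.78 ± 1.09 in Rag2-/- tumors (SD, n = 11) and 3.88 ± 1.49 (SD, n = 8) in Rag2+/- tumors, differing by 0.89 (−0.25 to 2.04), and Cxcl5 at 3.65 ± 1.15 in Rag2-/- tumors (SD, n = 11) and 3.06 ± 1.42 (SD, n = 8) in Rag2+/- tumors, differing by 0.59 (−0.56 to 1.73). Cxcl2 differed by 0.13 (−1.34 to 1.59) and Cxcl3 by −0.60 (−2.16 to 0.95). Their receptor Cxcr2 was at 0.64 ± 0.90 in Rag2-/- tumors (SD, n = 11) and −0.35 ± 1.72 (SD, n = 8) in Rag2+/- tumors, differing by 0.99 (−0.21 to 2.19), where the 8 neutrophil markers had a median difference of 0.65, none with an unadjusted p under 0.05. Cxcl5 and Cxcr2 had r = 0.78 and rho = 0.81 in Rag2+/- tumors (exact permutation p = 0.0214 and 0.0218, adjusted p = 0.0714 and 0.109) and r = 0.94 without S53 and S55. In Rag2-/- tumors r was 0.53 and rho 0.39 (permutation p = 0.0955 and 0.238), and r was −0.04 without S43 and S50. In the 8 Rag2-/- tumors of the source data r was 0.88 and rho 0.88 (exact permutation p = 0.00372 and 0.00724, adjusted p = 0.0372 and 0.0724), so r passed there, and it was 0.63 without S43 and S50.

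Ligands of Ccr1, a receptor of monocytes, macrophages and neutrophils, form a second run on chromosome 11 (chr11:83525778-83664683) with Ccl5, Ccl9, Ccl6, Ccl3 and Ccl4. Ccl6 was 4.55 at the lowest, 5.81 at the median and 9.60 at the highest in Rag2-/- tumors and 5.78, 6.71 and 8.92 in Rag2+/- tumors, a difference of −0.78 (−1.95 to 0.39). The value of 9.60, in S46, stood far above the next Rag2-/- tumor, S51 at 7.74. In the 15 tumors, which leave out both, the difference was −1.42 (limma unadjusted p = 0.00512, adjusted p = 0.229). Ccl9 behaved alike, with S46 at 7.86, a difference of −0.34 (−1.20 to 0.53) in 19 tumors and −0.90 (limma unadjusted p = 0.0213) in the 15. The macrophage products Ccl3 and Ccl4 differed by −0.05 (−1.13 to 1.03) and 0.47 (−0.36 to 1.30). Ccr1 was at 4.71 ± 0.27 in Rag2-/- tumors (SD, n = 11) and 4.23 ± 0.95 (SD, n = 8) in Rag2+/- tumors, differing by 0.49 (−0.10 to 1.08), with S56, at 2.12, the lowest of all.

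Ccl5, made by T cells and NK cells as well as by tumor cells, was at 6.11 ± 1.20 in Rag2-/- tumors (SD, n = 11) and 5.26 ± 1.08 (SD, n = 8) in Rag2+/- tumors, differing by 0.85 (−0.19 to 1.89). It was present in every Rag2-/- tumor, from 4.06 to 7.90. Its level followed the NK cell genes in Rag2+/- tumors, with r = 0.91 and rho = 0.76 (n = 8, exact permutation p = 0.00213 and 0.0368, adjusted p = 0.0142 and 0.147). In Rag2-/- tumors the values were r = 0.63 and rho = 0.82 (n = 11, permutation p = 0.0390 and 0.00319, adjusted p = 0.0979 and 0.0213). The 2 measures thus fell on different sides of the threshold. With the 2 tumors most distant from the median NK cell level left out, r was 0.80 in Rag2+/- and 0.95 in Rag2-/- tumors. In the 7 Rag2+/- tumors of the source data r was also 0.80 (exact permutation p = 0.0343, adjusted p = 0.137), and in the 8 Rag2-/- tumors r was 0.59 and rho 0.74 (exact permutation p = 0.119 and 0.0458, adjusted p = 0.294 and 0.240), so neither genotype passed there.

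Cx3cl1, a membrane-held ligand of endothelial and other cells, and its receptor Cx3cr1, which marks patrolling monocytes, tissue macrophages and NK cells, were low in the same tumors. Cx3cr1 was at −2.45 in S51 and 2.19 in S46, against 3.84 to 5.44 in the other 9 Rag2-/- tumors, and at 0.52 in S59, 1.91 in S56 and 2.58 in S60, against 3.79 to 5.27 in the other 5 Rag2+/- tumors. In these 5 tumors Cx3cl1 was also at its lowest, at 0.93 in S51 and 0.62 in S59. The tumors therefore form separate clusters and no pooled correlation is given. Among the 9 Rag2-/- tumors without S46 and S51, r was −0.14, and the 5 Rag2+/- tumors without S56, S59 and S60 are too few for a correlation. The genotypes did not differ beyond the spread, with a difference of 0.55 (−1.31 to 2.41) for Cx3cr1 and 0.57 (−0.63 to 1.77) for Cx3cl1.

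**Figure D5:**
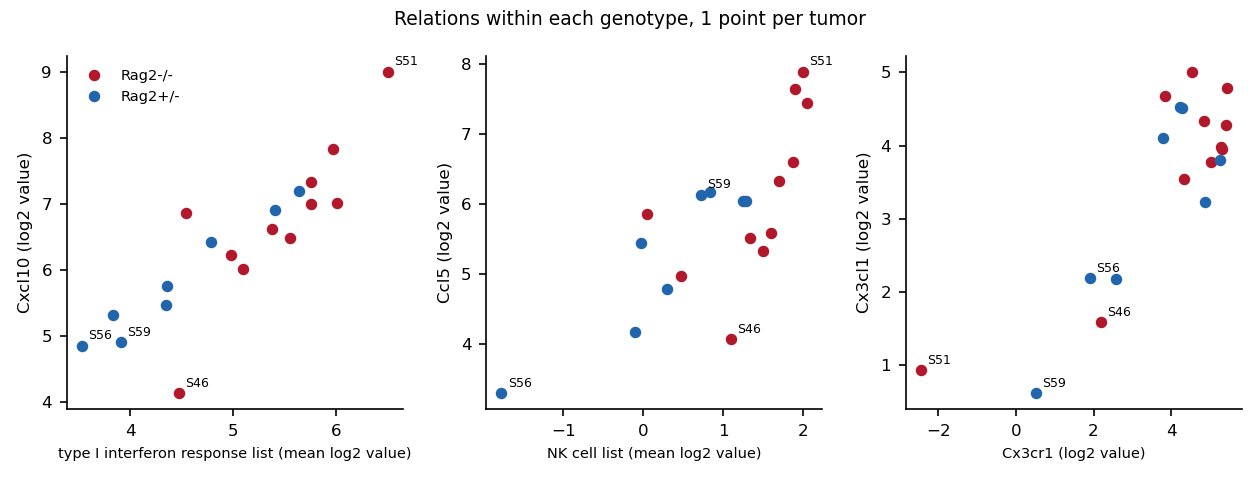
Cxcl10 against the mean of the type I interferon response genes, Ccl5 against the mean of the NK cell genes, and Cx3cl1 against Cx3cr1, each in log2 values with 1 point per tumor (red for 11 Rag2-/-, blue for 8 Rag2+/-). Cxcl10 climbs with the list in both genotypes, with S46 lowest and S51 highest, whereas in the Cx3cl1 panel 5 tumors, among them S46, S51, S56 and S59, sit apart from the others.

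The remaining genes are homeostatic ligands, ligands of Ccr3, and receptors of stroma and leukocytes. Cxcl12, a ligand of fibroblasts that retains cells through Cxcr4, varied least between tumors, with an SD within genotypes of 0.47 and values of 6.30 to 7.80. It was at 7.21 ± 0.45 in Rag2-/- tumors (SD, n = 11) and 6.79 ± 0.49 (SD, n = 8) in Rag2+/- tumors, differing by 0.41 (−0.03 to 0.85). Cxcr4 differed by −0.08 (−0.75 to 0.58) and Ackr3, a scavenger of Cxcl12, by −0.23 (−0.94 to 0.49). Cxcl14, a ligand of stroma and epithelium, differed by −0.60 (−1.56 to 0.36). Of the ligands of Ccr3, the eosinophil receptor, Ccl11 differed by −0.07 (−1.05 to 0.92) and Ccl24 by −0.11, with a wide interval (−1.89 to 1.67). Ccr3 itself was near the floor, at −2.14 ± 0.93 (SD, n = 11) and −1.98 ± 0.73 (SD, n = 8).

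Single tumors shaped many of these values. Within Rag2-/- tumors S51 held the highest value of 16 of the 41 genes, among them Ccl2, Ccl5, Ccl8, Cxcl9 and Cxcl10, and S46 the highest of 9, among them Ccl3, Ccl6 and Ccl9. Both had the highest Cxcl13 values of the group, 4.85 and 4.15. Among Rag2+/- tumors S59 held the highest value of 14 genes and S55 of 13, while S56, the tumor richest in muscle, held the lowest of 21. With S56 left out, the differences of Ccl2, Ccl7 and Ccl12 were 0.63, 0.53 and 0.71, each with an unadjusted p below 0.05. In the 15 tumors, 16 of the 41 genes had an unadjusted p under 0.05, 7 positive and 9 negative, where 10.3% and 9.47% of all genes did. Ccr8 alone of the 41 had an adjusted p under 0.05, against 0.224% of all genes, and Ccr4 had values without overlap, against 0.196% of all genes on the lower side. Ccr4 and Ccr8 entered the test through the group in which they were detected. The added genes were Cxcl10 and Cx3cr1, with differences of 0.76 and 1.25, and Ccl6, Ccl9, Cxcl9, Cxcr3 and Ccr7, of which Cxcl9 at −0.99 and Cxcr3 at −0.93 had unadjusted p of 0.0236 and 0.0163. By exact permutation in the 15 tumors (two-sided) Cxcl10 and Ccr7 had p of 0.0614 and 0.0640, and the other added genes had p under 0.05.

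Genes around the family gave little more. Of 20 further chemokines and receptors 16 were detected often enough to be tested, and none had an unadjusted p under 0.05, with Ccl19, a ligand of Ccr7, at −0.87 and Ccl21a, another, at 0.68 as the farthest from 0. Pf4, a chemokine of platelets and macrophages, was at 6.73 ± 1.01 (SD, n = 11) and 6.91 ± 0.80 (SD, n = 8), among the highest of the family. Of 21 genes that act downstream of chemokine receptors, such as G proteins, arrestins and Rac proteins, 19 had a positive difference and 3 an unadjusted p under 0.05, Gng2 at 0.51, Arrb2 at 0.46 and Grk6 at 0.40, and 0 passed the adjusted test. Of 9 cytokines tested that induce chemokines, 2 had an unadjusted p under 0.05, Il1b at 0.76 and Ifnb1 at 0.94. The interferon gamma response genes had 0 of 11, with a median of 0.13. Among markers of other cells, none of 3 eosinophil, 9 dendritic cell, 6 mast cell and 7 fibroblast genes tested had an unadjusted p under 0.05, and 1 of 6 endothelial genes did, with a negative difference. The relations of Cxcl16 with Cxcr6, Ccl22 with Ccr4, Cxcl13 with the B and plasma cell list and Cxcl12 with Cxcr4 gave adjusted p of 0.0979 or more for r in both genotypes (permutation, exact for n = 8). For Ccl22 with Ccr4 the test in Rag2-/- tumors could not decide, because Ccr4 was above the floor in only 1 of 11. Family members share sequence, for example Ccl6 with Ccl9 or Cxcl1 with Cxcl2 and Cxcl3, and how reads matching several genes were assigned is not given in the sources used here, so values of single relatives are uncertain.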

How the data were processed

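RNA was measured in 19 primary p53/MCA sarcomas. The authors used Omicsoft Array Studio to align reads (mouse build B38) and to quantify Ensembl R86 gene models. They deposited log2 values of upper-quartile normalized FPKM, to which 0.1 had been added, as the lowest value of −3.32 shows. The submitters' notes also name Trimmomatic 0.36, STAR 5.5.4b and HTSeq. The values are not counts, so genes above the floor in at least 8 tumors (18373) were compared by limma (3.58.1, R 4.3.3) with a trend of variance on intensity, and p-values were adjusted over all of them after Benjamini and Hochberg. The fit was first tried on the deposited values, with the groups centred and known differences added to some genes. Single genes were also compared by two-sided exact permutation of all 75582 assignments of 19 tumors to 11 and 8, with a smallest possible p of 1.32e-05, or of the 6435 for the 15 tumors. For 10 relations within each genotype, all 40320 orders (n = 8) or 100000 random ones (n = 11) were drawn, adjusted over 20. Depth was estimated from low values of genes with 1 annotated transcript in GENCODE vM21, the source of all gene coordinates, and 77.3% to 89.7% of these were whole fragments to within 0.05. Tumors are separate mice, with no batch or pairing in the labels. The genes named with values are those with an unadjusted p under 0.05, the 10 highest in mean, at least 2 of each role, Rag2, Ifng and other family genes. The 41 genes, the lists and the tests were chosen with earlier results of these data known. The NF-κB consensus was searched as GGG, a purine, any 2 bases, 2 pyrimidines and CC, on both strands. Python 3.11.15 with scipy 1.17.1, pandas 2.3.3 and numpy 2.4.6 did the rest. The comparison was repeated with other tumors, filters, added constants, scalings, variance models and covariates.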

Additional observations from a re-analysis of the deposited data

Results flagged for a closer look

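Among the 8 Rag2+/- tumors, 3 of the 41 genes had a single tumor far from the others, by Dixon's ratio of the gap to the whole range (above 0.526 for 8 values), and each time it was S56, as the lowest. Ccl4 was at 0.172 there against 2.18 in the next tumor, Ccr1 at 2.12 against 3.84, and Cxcr4 at 2.46 against 4.19. Chance flags about 1 in 20 groups. S56 also had the highest skeletal muscle level of the 19 tumors, a mean log2 value of 13.03, and the lowest macrophage and monocyte level, 4.68. Their part in these low values was not tested. The 11 Rag2-/- tumors were not examined this way, as the rule covers groups of at most 10.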

How the results depend on the processing

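The count of genes called after adjustment was 0 in 19 tumors and 1, always Ccr8, in the 15 tumors, with 0.01 added in place of 0.1, after quantile normalization, after a shift of each tumor to one median and with the skeletal muscle covariate. Without single tumors it was 0 to 1, the latter without S53 or S56. Ccr8 then had differences between −4.24 and −2.02, but it met the filter through Rag2+/- tumors, so these counts describe it and are no support. With 1 added the differences were −0.53 for Ccr8 (limma adjusted p = 0.269), −0.17 for Ccr4, −0.15 for Cxcr5, −0.99 for Cxcr6 and 1.15 for Xcl1, and with 0.01 added −2.89 for Ccr4 and −1.76 for Cxcr5. Ccl7 was at 0.45 in the 15 tumors and Ccl12 at 0.56 with the muscle covariate. The count with an unadjusted p under 0.05 was 9, 16 in the 15 tumors and 8 to 13 without single tumors. Among the 32 genes with a mean log2 value above 0, which leaves out Ccr4, Ccr8 and Cxcr5, it was 6, with 5 positive and 1 negative (18.8%, where 16.3% of all genes did). As a share of the 41 genes, beside the share of all genes, this was 22.0% and 14.9% in 19 tumors, 39.0% and 19.8% in the 15, 22.0% and 4.80% with the muscle covariate, 22.0% and 7.72% with an Xist covariate, 29.3% and 7.26% without S56, and 26.8% and 27.4% without S51. The median difference over the 41 genes, −0.08 with 18 positive, was 0.20 with 25 positive under the muscle covariate, 0.085 with 21 positive under the Xist covariate and −0.41 with 15 positive in the 15 tumors. Without single tumors that median ran from −0.23, without S46, to 0.12, without S59, so its sign was not stable. Values without overlap were found for 0 genes, for 1 in the 15 tumors, and for 0 to 1 without single tumors (1 without S56), each time Ccr4, against 0.196% of all genes on the lower side in the 15 tumors and 0.0929% without S56. Ccr4 too met the filter through Rag2+/- tumors. Of 5 relations that passed by r in 19 tumors, 2 are those of Cx3cl1 with Cx3cr1, whose tumors form clusters. In the 15 tumors no relation passed by rho and 2 passed by r, of which only Cxcl10 with the type I interferon list in Rag2+/- tumors was among the 5, and the other was Cxcl5 with Cxcr2 in Rag2-/- tumors (r = 0.876). There r was 0.578 for Cxcl10 with the type I interferon list in Rag2-/- tumors and 0.801 for Ccl5 with the NK cell list in Rag2+/- tumors. For Cx3cl1 with Cx3cr1 it was −0.143 in Rag2-/- tumors, where S46 and S51 are left out. Over 30 alternatives 16 of the 41 genes changed sign, all with a difference of at most 0.60 in either direction, and none of the 9 with an unadjusted p under 0.05 did. Ccr4 was left untested without any 1 of 8 tumors in which it was detected. The low depth of S41 and the few fragments on Ccr4, Ccr8, Cxcr5 and Ccr6 limit what their values can show. No paired analysis was possible because the tumors carry no replicate numbers shared between genotypes.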
